A study of Mus musculus with 10 samples.

Results

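Ints10, Zfp868, Ssbp4, Ocel1, B3gnt3, Tbc1d9, Clgn, Prkaca, Gcdh and Neto2 are 10 protein-coding genes of mouse chromosome 8 whose mRNA levels differed between Ddx41 genotypes in sorted erythroid progenitors. They were picked by symbol from the 24421 genes of a raw count table, and the pick itself used the difference between Ddx41+/- and Ddx41+/+ mice that kept both Trp53 alleles. For that comparison their values are therefore given as a description, with no test. All 10 members were in the table and passed the filter on low counts, among 11846 tested genes. The rule for the choice names no value of the mice heterozygous for Trp53, and the members were tested there, but earlier results of these data were known when they were picked, and the rule does not say why 3 other called genes of the same stretch are not among them. Clgn passed the filter only through the Ddx41+/- Trp53+/+ mice, so its values elsewhere are given with no test.

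The cells were R2 erythroid progenitors, the CD71+ Ter119+ fraction of bone marrow, and about 100000 of them were sorted from each recipient mouse and measured by RNA-seq. Lethally irradiated BoyJ mice received 1000000 bone marrow cells of a donor that carried RosaCreERT2, then tamoxifen (1 mg per day for 5 days, in 2 rounds), and marrow was taken 8 weeks post-transplant. The 4 genotypes were Ddx41+/+ Trp53+/+ (mice 10, 11 and 12), Ddx41+/+ Trp53+/- (mice 22, 23 and 24), Ddx41+/- Trp53+/+ (mice 32 and 34) and Ddx41+/- Trp53+/- (mice 46 and 47). Libraries held 7866648 to 20283930 counts, with the fewest in mouse 34 and 16031406 in mouse 32. Every group shared the Cre transgene, the tamoxifen, the irradiation and the BoyJ host. Ddx41+/- cells came from Ddx41+/flox donors by tamoxifen-induced excision of the floxed allele, with the Cre driven from the ubiquitously active Rosa26 locus, while Trp53 heterozygosity was a germline knockout. The sort used CD71 and Ter119 only, which do not separate donor from host cells, and the labels do not say how many donors supplied the mice of a genotype. The p-values measure the spread between recipient mice, which may share a donor. The donor strains were kept on a C57BL/6N background, and the chromosome 8 genotype of donors and hosts was not analysed here.

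The members do unrelated work in the cell, and they are held together here by their position. Ints10 is a subunit of Integrator, the complex that cleaves nascent RNA at small nuclear RNA and other RNA polymerase II genes. Prkaca is the main catalytic subunit of protein kinase A, Gcdh is the mitochondrial glutaryl-CoA dehydrogenase of lysine and tryptophan breakdown, and Clgn is calmegin, a lectin chaperone of the endoplasmic reticulum best known from male germ cells. Ssbp4 belongs to the single-stranded DNA-binding proteins that stabilise the LDB1 adaptor used by erythroid transcription factors, B3gnt3 is a Golgi glycosyltransferase, Tbc1d9 carries a Rab GTPase-activating domain, Neto2 is an accessory protein of kainate receptors, Zfp868 is a zinc finger protein and Ocel1 has an occludin and ELL domain.

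On GRCm38 the members lay between 68793929 and 85700924 of chromosome 8, a span of 16.9 Mb, in 2 separate blocks of 5. The first block ran from Ints10 (chr8:68793929-68831667, + strand) through Zfp868 (chr8:69610857-69625548, - strand), Ssbp4 (chr8:70597490-70608872, - strand) and Ocel1 (chr8:71371298-71379361, + strand) to B3gnt3 (chr8:71690756-71701789, - strand). After a gap of 11.5 Mb, the second block held Tbc1d9 (chr8:83165352-83272934, + strand), Clgn (chr8:83389867-83428552, + strand), Prkaca (chr8:83972993-83996443, + strand), Gcdh (chr8:84886393-84893921, - strand) and Neto2 (chr8:85636588-85700924, - strand). Neither targeted gene lies on this chromosome: Ddx41 is on chromosome 13 and Trp53 on chromosome 11. Counts were read over whole genes, so each value below sums a gene's exons. The exons of Ocel1 shared 22.7% of their bases with Nr2f6 on the opposite strand, and those of Tbc1d9 shared 13.9% with Gm10645, so reads there may be split or assigned differently between the partners.

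Promoter sequence was at hand in RefSeq (GRCm38.p6, 250 bases before to 50 after the start) for 8 of the 10 members, and not for Ints10 and Clgn. Those of 2 members that were higher in the Ddx41+/- Trp53+/+ mice, Ssbp4 (chr8:70608265-70608564, - strand) and Tbc1d9 (chr8:83165102-83165401, + strand), and of 2 that were lower, Gcdh (chr8:84893872-84894171, - strand) and Neto2 (chr8:85700875-85701174, - strand), are printed so that members moving in opposite directions can be read side by side. Capitals mark each CCAAT and each GGGCGG on either strand.
Ssbp4: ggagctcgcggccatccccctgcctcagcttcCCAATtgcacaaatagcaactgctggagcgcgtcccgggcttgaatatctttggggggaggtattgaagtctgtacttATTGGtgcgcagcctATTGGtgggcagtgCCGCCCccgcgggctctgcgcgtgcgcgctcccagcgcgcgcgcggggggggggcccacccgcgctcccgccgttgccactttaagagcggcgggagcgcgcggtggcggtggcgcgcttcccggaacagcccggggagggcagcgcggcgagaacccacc
Tbc1d9: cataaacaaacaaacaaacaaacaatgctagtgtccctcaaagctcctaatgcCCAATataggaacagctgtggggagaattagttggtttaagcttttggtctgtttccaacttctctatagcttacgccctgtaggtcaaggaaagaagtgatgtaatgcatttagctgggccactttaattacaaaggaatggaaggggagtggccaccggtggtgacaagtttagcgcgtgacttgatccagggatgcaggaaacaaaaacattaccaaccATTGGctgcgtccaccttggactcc
Gcdh: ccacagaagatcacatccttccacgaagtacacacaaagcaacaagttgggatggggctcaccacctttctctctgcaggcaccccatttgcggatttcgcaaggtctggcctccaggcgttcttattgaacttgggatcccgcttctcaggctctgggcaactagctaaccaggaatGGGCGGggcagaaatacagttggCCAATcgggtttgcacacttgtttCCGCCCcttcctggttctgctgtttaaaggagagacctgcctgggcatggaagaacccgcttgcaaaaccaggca
Neto2: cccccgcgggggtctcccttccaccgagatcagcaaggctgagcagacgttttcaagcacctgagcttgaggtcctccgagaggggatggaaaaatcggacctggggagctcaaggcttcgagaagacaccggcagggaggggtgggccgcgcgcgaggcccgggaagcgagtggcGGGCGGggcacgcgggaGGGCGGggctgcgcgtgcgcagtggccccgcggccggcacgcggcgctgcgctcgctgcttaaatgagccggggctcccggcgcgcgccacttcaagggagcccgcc
GGGCGG, the GC box, was present in 7 of the 8 promoters, against 35.7% of all 32851 promoters of this length, and CCAAT in 6 of 8, against 37.4%. The Tbc1d9 promoter was the 1 without a GC box, and those of B3gnt3 and Neto2 were without CCAAT. The TATA box (TATAAA), the GATA factor motif (AGATAA), the CACCC motif (CCACACCC), the ETS motif (CCGGAAGT) and the NRF1 motif, searched on both strands, were found in 0 of the 8. They were in 13.6%, 11.2%, 3.56%, 3.89% and 0.971% of all promoters. GC content spread from 45% in Tbc1d9 to 72% in Neto2, with 5 and 36 CpG sites, against medians of 52.7% and 7 over all promoters. Among the higher members Tbc1d9 had 5 CpG sites and Ssbp4 35, and among the lower members Zfp868 had 6 and Neto2 36.

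The sorted cells carried erythroid markers. Slc4a1, the red cell anion exchanger, had a median of 27638 CPM (read counts scaled to a common library size with TMM factors), Alas2, the erythroid enzyme of heme synthesis, 8028 CPM and Tfrc (CD71) 3188 CPM. Globin genes did not stand for the lineage in this table, since Hbb-bt was at 0 in every library and Hba-a1 reached at most 1.28 CPM. Ddx41 was at 25.1, 21.9 and 22.6 CPM in mice 10, 11 and 12 and at 26.6, 22.9 and 23.2 CPM in mice 22, 23 and 24. It was at 13.8 and 16.5 CPM in mice 32 and 34 and at 12.49 and 15.7 CPM in mice 46 and 47, so all 4 Ddx41+/- mice lay below all 6 Ddx41+/+ mice (log2 fold changes -0.63 with Trp53+/+ and -0.78 with Trp53+/-, with adjusted p-values of 0.0887 and 0.177 in edgeR). Trp53 was at 57.4 to 68.1 CPM in the 5 Trp53+/+ mice and at 40.3 to 46.2 CPM in the 5 Trp53+/- mice. The level of the targeted genes thus followed the labels in every library.

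Per kilobase of exon, the members covered a wide range of expression. In Ddx41+/+ Trp53+/+ mice the order of mean levels was Gcdh (31.7 CPM per kb ± 2.42, SD, n = 3), Prkaca (31.6 ± 1.53), Ints10 (19.4 ± 2.44), B3gnt3 (14.7 ± 1.91), Zfp868 (5.61 ± 0.387), Ssbp4 (4.49 ± 0.325), Ocel1 (2.13 ± 0.438), Neto2 (2.04 ± 0.167), Tbc1d9 (0.851 ± 0.344) and Clgn (0.0393 ± 0.0193). Gcdh and Prkaca, and likewise Ocel1 and Neto2, did not differ beyond their spread. In the 2 Ddx41+/- Trp53+/+ mice the order changed, since Clgn stood at 3.73 CPM per kb ± 0.124 and Tbc1d9 at 3.44 ± 0.104, both above Zfp868 at 2.21 ± 0.647, while Ints10 stood at 4.95 ± 0.387, below Ssbp4 at 8.15 ± 0.460.

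In the mice that chose the members, 3 were higher and 7 lower in Ddx41+/- than in Ddx41+/+ cells. All 10 were past a fold change of 1.5 with an adjusted p under 0.05 in edgeR's quasi-likelihood fit, the contrast that the choice used, where 0.54% of all tested genes were, 0.38% higher and 0.16% lower. Their median absolute log2 fold change was 1.30, against 0.15 over all tested genes. Both Ddx41+/- Trp53+/+ mice lay outside the range of the other 8 mice for all 10 members, where this held for 765 of the 11846 tested genes, or 6.46%. The levels of mice 32 and 34 had chosen the members, so this count is a description and nothing is read from it. Less mRNA per cell and fewer cells that express a gene cannot be told apart in these bulk samples.

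**Figure D1:**
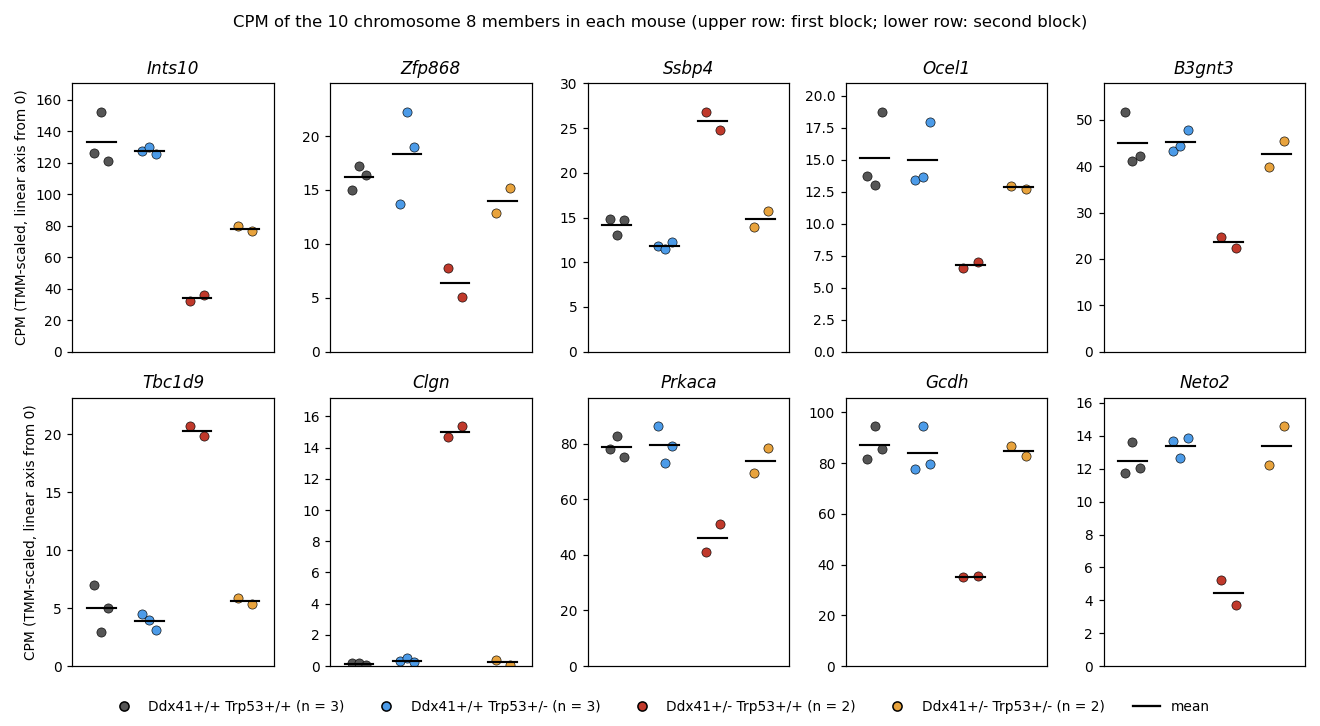
Each panel shows 1 member, with 1 point per mouse on a linear axis of CPM that starts at 0 and a bar at the mean of each genotype. The 2 Ddx41+/- Trp53+/+ mice lie apart from the other 8 in every panel. The Ddx41+/- Trp53+/- mice lie apart from all 6 Ddx41+/+ mice for Ints10 and, by a narrow margin, for Ocel1.

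Ints10 stood at 3 levels over the 4 genotypes. It was at 126, 152 and 121 CPM in mice 10, 11 and 12 and at 127, 130 and 126 CPM in mice 22, 23 and 24. It was at 32.2 and 35.9 CPM in mice 32 and 34, and at 79.7 and 76.5 CPM in mice 46 and 47. The Ddx41+/- mice with 1 Trp53 allele thus stood between the other Ddx41+/- mice and all 6 Ddx41+/+ mice, with no overlap among these 3 sets. With Trp53+/+ the level in Ddx41+/- cells was 25.6% of that in Ddx41+/+ cells (log2 fold change -1.98, SE 0.1102). With Trp53+/- it was 61.1%, a log2 fold change of -0.71 (SE 0.100), and this passed the test (edgeR's quasi-likelihood test, Benjamini-Hochberg adjusted p = 0.00753). Ints10 was 1 of 5 genes called in that comparison, where 0.0422% of the tested genes were, 0.0338% lower. It was the only member called there.

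The call rested on both Ddx41+/- Trp53+/- mice: without mouse 46 the log2 fold change was -0.74 with an adjusted p of 0.205, and without mouse 47 it was -0.67 with 0.427 (edgeR). With each of the other 8 mice left out, Ints10 stayed called. The rest of Integrator was measured from a list of 13 subunits, of which 10 were in the table and tested. None of the 10 passed in either comparison of the Ddx41 genotypes, 5 were higher and 5 lower in both, and their median log2 fold changes were 0.01 with Trp53+/+ and -0.02 with Trp53+/-. The most abundant, Ints1, had a log2 fold change of 0.03 and -0.08. The summed level of the 10 was 458 to 487 CPM in mice 10, 11 and 12 and 471 and 511 CPM in mice 32 and 34, so these groups overlapped.

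Zfp868 was at 15.0, 17.3 and 16.4 CPM in mice 10, 11 and 12, at 13.7, 22.2 and 19.0 CPM in mice 22, 23 and 24, at 7.73 and 5.08 CPM in mice 32 and 34, and at 12.8 and 15.1 CPM in mice 46 and 47. Mice 46 and 47 overlapped the Ddx41+/+ mice. The log2 fold change was -1.30 (SE 0.224) with Trp53+/+ and -0.40 (SE 0.202) with Trp53+/-, where it did not pass the test. The gene shares 3.62% of its 75-base stretches with Zfp869, its neighbour 80.8 kb further on. Zfp869 went the other way, with log2 fold changes of 0.51 and 0.59, and passed in neither comparison. Its groups did not overlap in either (unadjusted p = 0.00567 and 0.00189, edgeR), and mice 32 and 34 lay above the other 8.

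Ssbp4 was the member of the first block that was higher. Its level was 14.9, 13.0 and 14.7 CPM in mice 10, 11 and 12 and 26.8 and 24.8 CPM in mice 32 and 34, a ratio of 1.82 and a log2 fold change of 0.86 (SE 0.142). With Trp53+/- it was 11.8, 11.4 and 12.2 CPM in mice 22, 23 and 24 and 13.9 and 15.7 CPM in mice 46 and 47. These groups did not overlap, and the log2 fold change of 0.32 (SE 0.146) did not pass the test (unadjusted p = 0.0418, edgeR's adjusted p = 1.00). Of other parts of the LDB1 complex, 0 of 7 tested genes passed in either comparison, with log2 fold changes of 0.01 and 0.05 for Ldb1, 0.06 and -0.05 for Lmo2, -0.08 and -0.03 for Tal1 and -0.05 and -0.12 for Gata1 with Trp53+/+ and Trp53+/-. Lyl1, which also lies in the chromosome 8 interval, was at 0.29 and -0.13, and Ssbp2 at -0.26 and -0.17, both with an unadjusted p under 0.05 with Trp53+/+. Mice 32 and 34 had more Lyl1 than each of the other 8.

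Ocel1 was at 13.7, 13.0 and 18.7 CPM in mice 10, 11 and 12 and at 6.51 and 6.99 CPM in mice 32 and 34 (log2 fold change -1.17, SE 0.210). With Trp53+/- it was at 13.4, 13.7 and 17.9 CPM in mice 22, 23 and 24 and at 13.0 and 12.7 CPM in mice 46 and 47, which lay just below them (log2 fold change -0.23, SE 0.190, not past the test). Nr2f6, the orphan nuclear receptor gene that overlaps it, had log2 fold changes of 0.30 and 0.27 and passed in neither comparison. B3gnt3 was at 51.7, 41.2 and 42.1 CPM in mice 10, 11 and 12 and at 24.8 and 22.4 CPM in mice 32 and 34 (log2 fold change -0.93, SE 0.130). With Trp53+/- it was at 43.2, 44.3 and 47.9 CPM in mice 22, 23 and 24 and at 39.7 and 45.5 CPM in mice 46 and 47, which overlapped (log2 fold change -0.08, SE 0.122). Of its 7 paralogs 5 were tested and 0 passed, all 5 had positive values with Trp53+/+, and the most abundant, B3gnt2, had a mean of 18.3 CPM.

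The second block showed the largest ratios in mice 32 and 34. Clgn had 4, 4 and 1 counts in mice 10, 11 and 12, 3, 8 and 4 in mice 22, 23 and 24, and 7 and 1 in mice 46 and 47. It had 241 and 121 counts in mice 32 and 34, or 14.7 and 15.4 CPM, although mouse 34 was the library with the fewest counts. These libraries were thus alike in CPM, and no other mouse was above 0.494 CPM. The ratio of mean CPM was 94.9, with a log2 fold change of 6.44 (SE 0.481), and its size is loosely set because the Ddx41+/+ mice had 9 counts in all. In the Trp53+/- mice the groups overlapped at 1 to 8 counts, too few to pass the filter on their own, and no test is read there.

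Clgn is known from spermatogenic cells, and 4 of the 6 markers of those cells were at 0. Tnp1, Prm2, Sycp3 and Acrv1 had 0 counts in every library, Prm1 at most 5, and Ddx4 was at 4.50 to 7.46 CPM in all 10 mice with a log2 fold change of -0.19 (Trp53+/+). Of the chaperone cycle that Clgn resembles, Canx, Calr, Pdia3, Uggt1, Ganab and Prkcsh were tested and 0 of 6 passed in either comparison. Their summed level was 1153 to 1197 CPM in mice 10, 11 and 12 and 1182 and 1156 CPM in mice 32 and 34.

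Tbc1d9, the member that lies next before Clgn, was also higher. It was at 7.01, 2.96 and 5.05 CPM in mice 10, 11 and 12, at 4.50, 3.96 and 3.09 CPM in mice 22, 23 and 24, at 20.7 and 19.8 CPM in mice 32 and 34, and at 5.87 and 5.38 CPM in mice 46 and 47. Its ratio with Trp53+/+ was 4.04, or a log2 fold change of 2.02 (SE 0.270). With Trp53+/- the groups did not overlap, and the log2 fold change of 0.56 (SE 0.294) did not pass the test (unadjusted p = 0.0726, edgeR's adjusted p = 1.00). The related Tbc1d9b of chromosome 11 had log2 fold changes of -0.30 and -0.06. Elmod2, the gene that lies between Tbc1d9 and Clgn, had 0.54 and -0.15, and Scoc, 1.53 kb after Clgn, had 0.47 and -0.15. Neither passed the test in either comparison, although both were above the other 8 mice in mice 32 and 34.

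Prkaca, Gcdh and Neto2 were lower in mice 32 and 34 and were at levels in mice 46 and 47 that overlapped those of mice 22, 23 and 24. Prkaca was at 77.9, 82.8 and 75.3 CPM in mice 10, 11 and 12, at 86.2, 72.9 and 79.2 CPM in mice 22, 23 and 24, at 41.2 and 51.1 CPM in mice 32 and 34, and at 69.4 and 78.4 CPM in mice 46 and 47. The log2 fold changes were -0.78 (SE 0.113) with Trp53+/+ and -0.10 (SE 0.107) with Trp53+/-. Among 7 tested partners of protein kinase A, which are its other catalytic subunit, regulatory subunits and inhibitors, 0 passed in either comparison. Prkar2b, the most abundant at a mean of 328 CPM, had a log2 fold change of -0.40 with an adjusted p of 0.0306 (edgeR) in the Trp53+/+ mice, within the limit on the fold. The summed level of that list was 590, 638 and 597 CPM in mice 10, 11 and 12 and 505 and 551 CPM in mice 32 and 34, below all of the other 8 mice.

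Gcdh was nearly equal in mice 32 and 34. It was at 81.5, 94.5 and 85.6 CPM in mice 10, 11 and 12, at 77.6, 94.5 and 79.7 CPM in mice 22, 23 and 24, and at 86.9 and 82.7 CPM in mice 46 and 47. It was at 34.9 and 35.7 CPM in mice 32 and 34, 40.5% of the Ddx41+/+ Trp53+/+ mean (log2 fold change -1.31, SE 0.1099). With Trp53+/- the log2 fold change was 0.01 (SE 0.101). Of 8 other genes of lysine breakdown 6 were tested and 0 passed in either comparison, and Aadat and Aass, the first enzyme of the pathway, were at 0 in every library. All 6 had negative values with Trp53+/+, at a median of -0.21. Their summed level was 422, 454 and 421 CPM in mice 10, 11 and 12 and 394 and 392.4 CPM in mice 32 and 34, which did not overlap, while mice 46 and 47, at 383 and 423 CPM, lay on both sides of the latter.

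Neto2 was at 11.8, 13.7 and 12.04 CPM in mice 10, 11 and 12, at 13.7, 12.7 and 13.9 CPM in mice 22, 23 and 24, at 5.23 and 3.68 CPM in mice 32 and 34, and at 12.2 and 14.6 CPM in mice 46 and 47. The 29 counts of mouse 34 were the fewest for any lower member. The log2 fold change was -1.44 (SE 0.202) with Trp53+/+ and 0.00 with Trp53+/- (means of 13.4 CPM in both Ddx41 genotypes). Its paralog Neto1 was at 0 in every library.

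The partners and relatives of the members were thus counted in 7 lists, with 45 tested genes. Besides those given above, the summed level of the LDB1 list was 3189 to 3319 CPM in mice 10, 11 and 12 and 3205 and 3241 CPM in mice 32 and 34, that of the B3gnt3 paralogs 14.04 to 27.3 CPM and 27.9 and 26.3 CPM, and that of other close relatives 201 to 220.4 CPM and 203 and 188 CPM, so these overlapped. In edgeR 0 of 45 were called in either comparison of the Ddx41 genotypes, and in DESeq2 0 as well. With Trp53+/+, 9 of the 45 had an unadjusted p under 0.05 in edgeR, where 9.64% of all tested genes did. These were Ints3, Canx, Calr, Prkar2b, Etfdh, Ssbp2, Lyl1, B3gnt5 and Tbc1d9b, of which Calr and Lyl1 lie in the chromosome 8 interval. With Trp53+/- 0 had such a p, where 3.75% of all tested genes did.

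**Figure D2:**
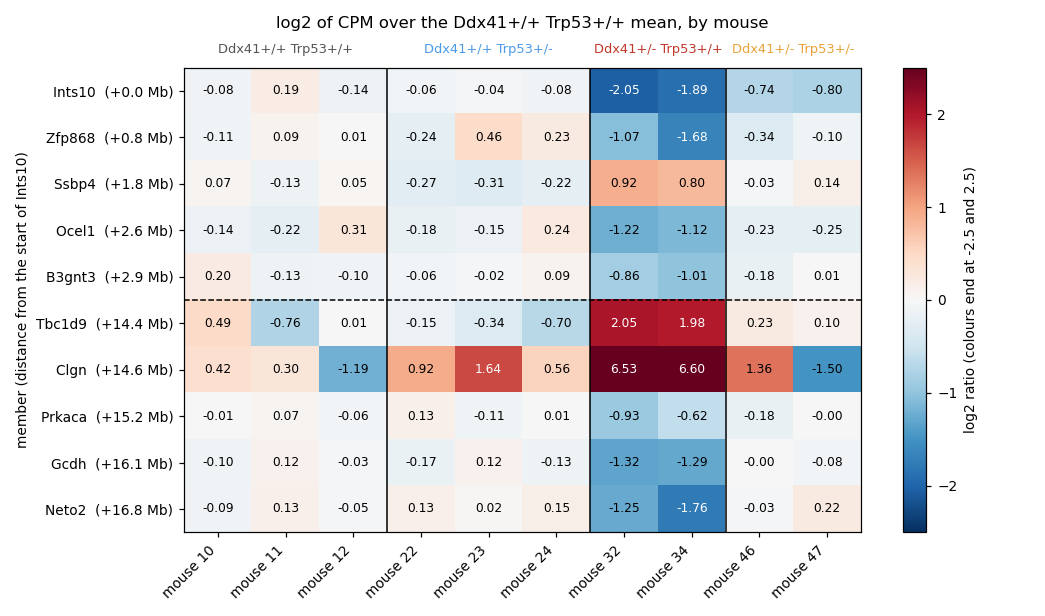
Each cell gives the log2 ratio of a mouse's CPM to the mean of the Ddx41+/+ Trp53+/+ mice, with members in chromosome order and a dashed line between their blocks. Mice 32 and 34 carry the strong colours in both blocks, and in mice 46 and 47 Ints10 (79.7 and 76.5 CPM) is the member furthest from 0 on the same side in both, Clgn having 7 and 1 counts there.

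With Trp53+/-, 9 members passed the filter on the compared mice alone, all but Clgn, and 1 of these 9 was thus called. By value in the fit over all 10 libraries, 8 of 9 had the same sign as in the Trp53+/+ mice, where 56.9% of all tested genes did. These were all 5 of the first block and 3 of 4 of the second. In the fit of the compared genotypes alone it was 7 of 9, with 2 of 4 in the second block. Some of these signs were loosely set. Neto2 had a log2 fold change of -0.00071 (SE 0.176), which was above 0 with DESeq2 and with its size factors. The same held with at least 10 counts in every library and in the fit of the compared genotypes alone. Neto2 was also above 0 when mouse 11, 22, 24, 32, 34 or 46 was left out. B3gnt3, at -0.08, was above 0 without mouse 46. Groups did not overlap for 4 of the 9, Ints10, Ssbp4, Ocel1 and Tbc1d9, where this held for 20% of the tested genes. The median absolute log2 fold change was 0.32 in the first block and 0.057 in the second, against 0.12 over all tested genes. The 8 of these that were not called all lay under the fold limit of 1.5, below which no p-value gives a call. Whether the Ddx41 difference depended on Trp53 was not tested for the members, because the mice of the first comparison had chosen them.

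The effect of Trp53 heterozygosity itself, which shares mice with these comparisons, is given as a description. With Ddx41+/+, again without Clgn, 0 of 9 members were called by edgeR, where 0.912% of the tested genes were, and 0 had an unadjusted p under 0.05, where 9.44% did, while the median absolute log2 fold change was 0.062. With Ddx41+/-, 7 of 10 were called, where 0.169% of the tested genes were, but mice 32 and 34, whose levels had chosen the members, are the reference there, so nothing is read from that count. Ints10 was at 229% of its Ddx41+/- Trp53+/+ level, Gcdh at 240%, Tbc1d9 at 27.8% and Clgn at 1.54%. Among the 6 Ddx41+/+ mice the Trp53 genotypes overlapped for 8 of these 9 members and did not for Ssbp4, where 14.1% of the tested genes did not.

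Across the 10 mice the log2 CPM of the members moved together or in opposition, with an absolute Pearson r of 0.801 to 0.957 over the 45 pairs and a median of 0.910. These correlations describe the gap between mice 32 and 34 and the rest, on which the choice rested, so no p is given. The non-member most like each gene lay on chromosome 8 for some: Dok4 for Ints10 (r = 0.937), Smim7 for Clgn (r = 0.952) and Zfp330 for Gcdh (r = 0.962). For others it lay elsewhere, such as Ccdc171 for Zfp868 (r = 0.976), Dlg5 for Ssbp4 and Tbc1d9 (r = 0.927 and 0.944), Ska2 for Ocel1 (r = 0.961), Cdc42ep3 for B3gnt3 (r = 0.975), Nap1l1 for Prkaca (r = 0.975) and Acp1 for Neto2 (r = 0.983). Among the 20 genes most like a member, 1 to 5 lay in the 20 Mb from the start of Ints10, a stretch with 1.69% of the tested genes.

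That 20 Mb interval (chr8:68793929-88793928) held 200 tested genes. With Trp53+/+, 13 of them were called, 10 of which are the members that the interval was drawn to hold. Among the other 190 genes 3 were called, or 1.58%, where 0.54% of all tested genes were. These were Slc25a42, 2810428I15Rik and Phkb, with log2 fold changes of -0.65, -0.68 and -0.81. Their adjusted p-values of 0.0498, 0.0428 and 0.0466 (edgeR) lay just within the limit. Just outside were Junb, Gatad2a and Rnaseh2a by the fold limit (0.58, 0.55 and -0.53) and Inpp4b and Arrdc2 by the adjusted p (0.0565 and 0.0579).

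The 3 called non-members were all lower in mice 32 and 34, the mice of the comparison that called them. Their likeness to the members was not tested. Slc25a42, a mitochondrial carrier gene 1.39 Mb into the interval, was at 56.1, 62.0 and 52.3 CPM in mice 10, 11 and 12, at 34.4 and 38.2 CPM in mice 32 and 34, at 53.4, 76.5 and 55.9 CPM in mice 22, 23 and 24 and at 47.3 and 45.7 CPM in mice 46 and 47. 2810428I15Rik, in the first block too, was at 32.5, 34.2 and 26.6 CPM in mice 10, 11 and 12, at 18.6 and 20.6 CPM in mice 32 and 34, at 34.5, 28.6 and 29.6 CPM in mice 22, 23 and 24 and at 23.01 and 21.7 CPM in mice 46 and 47. Phkb, a phosphorylase kinase subunit gene just past Neto2, was at 14.1, 15.7 and 13.5 CPM in mice 10, 11 and 12, at 8.70 and 7.62 CPM in mice 32 and 34, at 13.9, 14.7 and 13.9 CPM in mice 22, 23 and 24 and at 17.3 and 13.5 CPM in mice 46 and 47. With Trp53+/- the first pair did not overlap between Ddx41 genotypes (log2 fold changes -0.42 and -0.46, SE 0.138 and 0.139), Phkb overlapped (0.12, SE 0.161), and none passed the test.

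**Figure D3:**
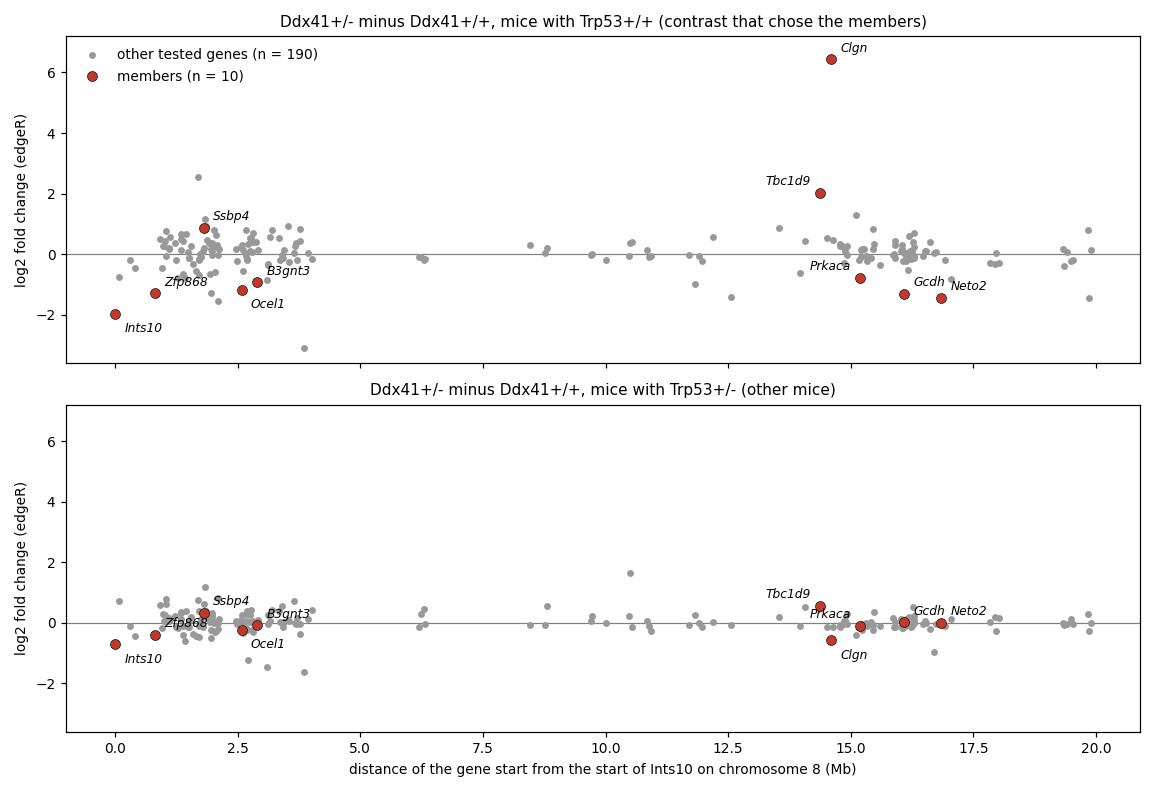
Each point is a tested gene of the 20 Mb interval, placed by the distance of its start from the start of Ints10 in Mb, with the edgeR log2 fold change between Ddx41 genotypes on the vertical axis. Members (red) lie far from 0 in both blocks with Trp53+/+. With Trp53+/- the values lie near 0 for Prkaca, Gcdh and Neto2 of the second block and for B3gnt3 of the first (-0.08), while Tbc1d9 of the second is at 0.56.

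The displacement was not limited to called genes. Without the 13 called genes, 50 of the other 187 genes of the interval, or 26.7%, had both Ddx41+/- Trp53+/+ mice outside the range of the other 8, 34 above and 16 below, against 6.46% over all tested genes, 3.11% above and 3.34% below. In the rest of chromosome 8 the share was 5.21% of 192 genes before the interval and 4.51% of 244 genes after it. Divided into windows of 20 Mb and with the members left out, the genome gave 136 windows. The 2 with the highest shares were the neighbouring windows of chromosome 8 that hold the members, at 23.9% and 22.1%. A window of chromosome 17 was next at 18.6%. Mice 32 and 34 had also chosen the members, and with them the place of the interval. These shares, and those by bin below, are thus a description and no test. The direct neighbours of the members were mixed: of 19 tested, 0 were called in either comparison by edgeR or DESeq2, 5 and 2 had an unadjusted p under 0.05 with Trp53+/+ and Trp53+/-, against 9.64% and 3.75% of all tested genes, and 7 had mice 32 and 34 outside the other 8, for example Asf1b beside Prkaca and Itfg1 beside Neto2 below them and Use1 beside Ocel1 and Jak3 beside B3gnt3 above. Klf1 and Syce2, on both sides of Gcdh, had log2 fold changes of 0.04 and 0.03 with Trp53+/+.

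In the mice with Trp53+/-, low p-values within the interval lay in its first 5 Mb. In the first 5 Mb of the interval, 16 of 102 genes, or 15.7%, had an unadjusted p under 0.05 between Ddx41 genotypes, against 3.75% over all tested genes, and groups did not overlap for 36.3%, against 20%. From 10 to 20 Mb, 0 of 27 and 0 of 62 genes had such a p, and groups did not overlap for 18.5% and 20.97%. With Trp53+/+, and with the members that this comparison chose, the share with such a p was 42.2% in the first 5 Mb. It was 37.0% from 10 to 15 Mb and 35.5% from 15 to 20 Mb. The difference between the Trp53 genotypes was not tested. In the Trp53+/+ mice, and without the members, the share with both mice outside the other 8 was 29.9% in the first 5 Mb, 32% from 10 to 15 Mb and 27.1% from 15 to 20 Mb, with 0 of 9 genes between 5 and 10 Mb. Both comparisons, which share no mice, could be set side by side. Groups failed to overlap in the same direction in both for 15 of the 75 non-members within the span of the first block, or 20%, and for 2 of the 54 within the span of the second, or 3.70%, against 3.56% over all tested genes. The difference between the blocks was not tested, since their limits were drawn from the members.

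**Figure D4:**
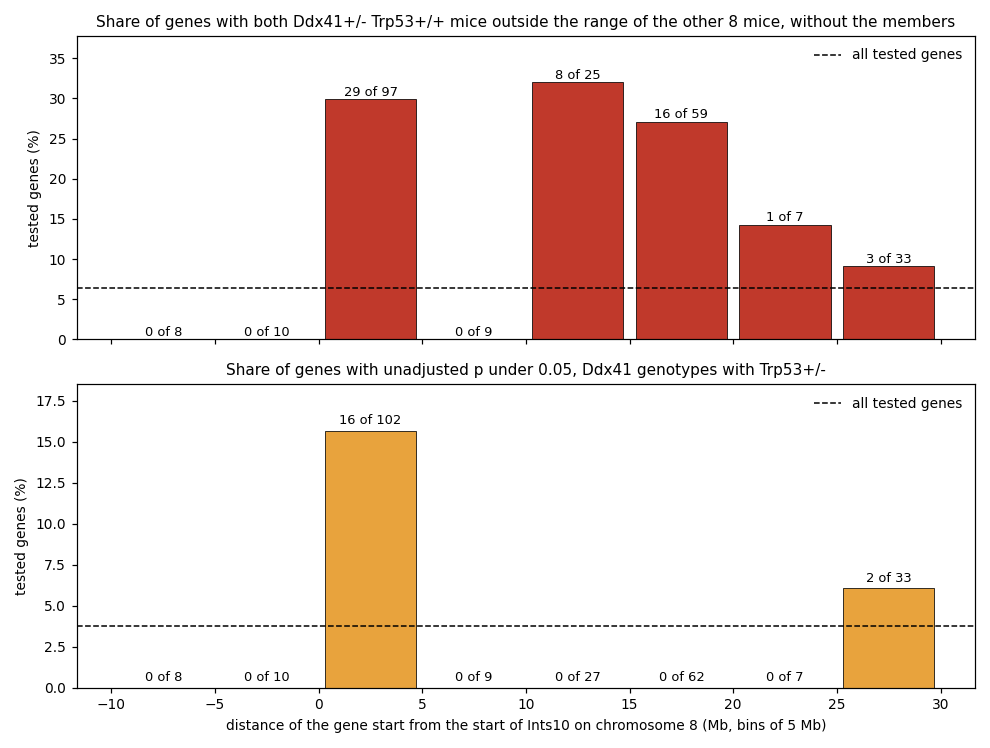
Bars give the share of tested genes per 5 Mb bin of chromosome 8, by distance from the start of Ints10, with the count of genes above each bar and a dashed line at the share over all tested genes. The upper panel (mice 32 and 34 outside the other 8, members left out) is raised in the bins of both blocks, and the lower panel (p under 0.05 with Trp53+/-) is raised in the bin of the first block, at 16 of 102 genes, with 2 of 33 genes in the bin from 25 to 30 Mb.

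Markers of other cells were read in the same libraries. B cell markers were higher with Trp53+/+ in 10 of 10 genes, at a median log2 fold change of 1.02. In edgeR 2 of them were called (Cd79a and Ebf1), where 0.54% of all tested genes were. DESeq2 called 5 of the 10, against 131 of all 11846 tested genes. The summed level of the 10, led by Cd74, was 345, 206 and 224 CPM in mice 10, 11 and 12 and 344 and 489 CPM in mice 32 and 34. It was 365, 404 and 441 CPM in mice 22, 23 and 24 and 455 and 398 CPM in mice 46 and 47. Neutrophil markers summed to 5230 to 8341 CPM in mice 10, 11 and 12 and to 8229 and 6116 CPM in mice 32 and 34, and macrophage markers to 329 to 614 CPM and 410 and 516 CPM, so these overlapped. In edgeR and in DESeq2 0 of 10 genes of each of these lists were called in either comparison of the Ddx41 genotypes. With Trp53+/+ 0 of either list had an unadjusted p under 0.05, where 9.64% of all tested genes did. With Trp53+/- 6 of 10 macrophage genes did, against 3.75% of all tested genes. All 10 macrophage genes were higher in mice 46 and 47, at a median log2 fold change of 0.52. For T and NK cell markers (7 tested), megakaryocyte markers (3 tested) and erythroid markers (9 tested), 0 were called by either tool and 0 had such a p in either comparison. Y-linked Ddx3y was at 52.1 to 68.6 CPM and Xist at no more than 1.16 CPM in all 10 mice. The part of other cells in the levels of the members was not tested beyond these values, and neither was the chromosome 8 sequence of any donor or host.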

How the data were processed

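Per the labels, RNA of about 100000 sorted R2 cells from each of 10 mice was made into libraries. As deposited, the values are raw counts of reads for each gene symbol, which the authors had not normalized, and their processing notes name FastQC 0.11.7, HISAT2 2.0.5, featureCounts 1.5.2 and mm10 (GRCm38). The strand setting, the annotation and the treatment of reads with several matches are not given in the sources used here. The study's methods name poly(A) selection, under which transcripts without a tail are not measured. Mice 35 and 45 had been removed from the counts as deposited and could not be analysed here.

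Genes were placed with GENCODE M21 or RefSeq (GRCm38) by symbol, and 11823 of the 11846 tested genes had a position. Counts were fitted with edgeR 4.0.16 (R 4.3.3; filterByExpr, TMM, quasi-likelihood) over all 10 libraries with 1 mean per genotype, since a genotype has 2 or 3 mice. A gene was called at a fold change over 1.5 and a Benjamini-Hochberg adjusted p under 0.05 over all tested genes. CPM used TMM-scaled library sizes, and 3 counts were worth 0.146 to 0.381 CPM, so precision was lowest in mouse 34. The fit was tested on simulated data with 200 changed genes. Named genes were the members, other called genes of the interval, the tested gene on either side of each member, the non-member with the closest Pearson correlation, the targeted genes and the genes of the partner and marker lists. The members and lists were chosen with earlier results of these data known. Alternatives were DESeq2 1.42.0, its size factors in edgeR, other count filters, a fit of the compared genotypes alone, no limit on the fold and leaving out each mouse.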

Additional observations from a re-analysis of the deposited data

How the results depend on the processing

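All 10 members kept their direction with Trp53+/+ in each of the 149 fits that gave a value. With Trp53+/- direction was kept in 143 of 158, for Ints10 in all of its 16. The 158 include fits of Clgn, which had too few counts there for a test, so nothing on stability is read from that tally. With Trp53+/-, Neto2 (-0.00071 on the log2 scale) was at 0.0019 with DESeq2, 0.0017 with DESeq2 size factors in edgeR, 0.012 with at least 10 counts in every library and 0.0093 in the fit of the compared genotypes alone. With each mouse left out it was at -0.12 to 0.12, Gcdh at -0.039 to 0.11, B3gnt3 at -0.17 to 0.01 and Clgn at -2.46 to 0.24, above 0 without mouse 47. The members past both limits with Trp53+/+, 10 by choice, were 5 without mouse 34 (Zfp868, Ssbp4, Ocel1, B3gnt3 and Neto2 were not past them) and 7 without mouse 32 (Ssbp4, Ocel1 and Prkaca were not), and 10 without each of the other 8 mice. The median absolute log2 fold change of the members with Trp53+/+, 1.30, was 1.23 to 1.49 with each mouse left out. The count of members called with Trp53+/-, 1, was 1 under every other setting and 0 to 1 with each mouse left out, being 0 without mouse 46 or mouse 47. Calls over all genes with Trp53+/+, 64, were 131 with DESeq2, 243 with no filter on low counts and 13 to 103 with each mouse left out, being 13 without mouse 34, 26 without mouse 32 and 103 without mouse 12. Calls in the 20 Mb interval, 13, were 25 with no filter and 5 to 18 with each mouse left out, being 5 without mouse 34 and 8 without mouse 32. With Trp53+/-, 5 calls over all genes became 39 with no filter, 2 with at least 10 counts in every library and 1 to 10 with each mouse left out, and 1 call in the interval became 2 with no filter and 0 to 1 with each mouse left out. The cause of these changes was not tested. Where a mouse of a Ddx41+/- genotype is left out, the other is assumed to vary like the remaining groups. Clgn could not be tested with the filter of 10 counts in every library, nor, with Trp53+/-, in the fit of the compared genotypes alone. No paired analysis was possible because the genotypes share no replicate numbers. With 2 mice in each Ddx41+/- genotype and 29 to 55 counts of some members in mouse 34, modest differences could be missed. On simulated data with Trp53+/-, 23.5% of changed genes were called at a true absolute log2 fold change of 0.58, 65.5% at 1 and 87.3% at 2. With Trp53+/+ these shares were 19.8%, 69.1% and 82.8%. A true change of 0.58 lies just under the fold limit (0.585 on the log2 scale), so that limit itself holds down the first share of each.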
